A study of Sus scrofa with 6 samples.

Results

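The integrated stress response (ISR) is the program in which stress-sensing kinases phosphorylate the translation factor eIF2, general translation slows, and the mRNA of the transcription factor ATF4 is translated more. ATF4 and the factors it induces, among them CHOP (the product of DDIT3), ATF3 and C/EBPβ (CEBPB), then switch on genes of amino acid supply, redox control, feedback on eIF2 and, when stress lasts, cell death. In the intestine the program is known from epithelial cells under endoplasmic reticulum stress, amino acid shortage or damage to the mitochondria. Here 9 of its transcription factors and effectors were followed in IPEC-J2 cells, an epithelial cell line from pig small intestine: the transcription factor genes DDIT3, ATF4, ATF3 and CEBPB, the stress cofactor genes NUPR1 and TRIB3, and the effector genes CHAC1, GDF15 and PPP1R15A. They were taken by name from the 31908 Ensembl pig gene IDs of the deposited RNA-seq table, and they were chosen by their TPM in the CDCA group against the CON group in these same 6 libraries. Their own differences between the groups are therefore given as a description, with no p-value or FDR of their own. Where the number past the limits for calling is given, it too is only a description.

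The CON group was IPEC-J2 cells given PBS and the CDCA group was IPEC-J2 cells given chenodeoxycholic acid (CDCA), a primary bile acid, at 50 μM. Cells of both groups were collected after 24 h, and 3 libraries were sequenced for each group, 6 in all. The cells are a single line, 1 dose and 1 time point were sequenced, and every SD and FDR below measures the spread between these libraries. The study calls them biological replicates, while the labels do not say whether they came from separate cultures. Levels are in TPM, an abundance of transcripts scaled to transcript length and to the library total, with all listed transcripts of a gene ID summed. The study reports the range of clean reads per sample, but the values come without read counts per gene, which allows no counting interval.

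The listed TPM summed to 357957 to 366073 in the CON group and to 351770 to 363387 in the CDCA group. TPM of all transcripts of a library sum to 1000000 by definition, so the listed values leave out most of each total. Which genes this touches was not settled, and a low listed value is read with that limit. A few housekeeping genes had low listed values, such as RPLP0 at 2.27 to 7.20 TPM. The share of mRNA encoded by mitochondrial DNA (mtDNA) moved with the groups, from 13.8 to 15.0% of the listed TPM in the CON group to 2.90 to 3.45% in the CDCA group. With the mtDNA genes left out of the totals, the median log2 fold change of all tested genes moved from 0.047 to -0.083, a shift of -0.13 that also applied to the ISR genes. Of 8 listed epithelial markers, EPCAM, KRT8, KRT18, CLDN4 and ELF3 had a mean over 1 TPM, while CDH1 lay at 0.31 to 0.58 TPM, VIL1 at 0 to 0.64 TPM and CDX2 at 0 to 0.02 TPM. The summed level of the 8 was 639 to 666 TPM in the CON group and 1216 to 1350 TPM in the CDCA group, most of the gap being CLDN4. Of 12 listed markers of fibroblasts, endothelium and blood cells, HBB and LUM were at 0 in all 6 libraries, and the sum was 3.75 to 5.46 TPM in the CON group against 7.33 to 8.21 TPM in the CDCA group. CD68, a lysosomal protein gene of that list, was at 0, 0 and 0.26 TPM in the CON group and at 5.33, 4.75 and 4.44 TPM in the CDCA group, and the higher sum rested on it. The other 11 summed to 3.61 to 5.46 TPM in the CON group and 2.58 to 3.04 TPM in the CDCA group, and PECAM1, an endothelial gene, fell from 1.66, 2.14 and 1.95 TPM to 1.12, 1.20 and 1.33 TPM (limma FDR 0.025). The part of these shifts in the results below was not tested, and in bulk RNA a change in cell make-up cannot be told apart from a change in RNA per cell.

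DDIT3 encodes CHOP, the C/EBP-family factor that ATF4 induces and that is best known for linking lasting stress to apoptosis. The gene ID named DDIT3 in the deposited table, ENSSSCG00000044553, was low in both groups, at 0.29, 0.13 and 0.25 TPM in the CON group and 2.19, 1.98 and 2.09 TPM in the CDCA group. Every CDCA library lay above every CON library, and the means of 0.223 ± 0.083 and 2.09 ± 0.11 TPM (SD, n = 3 each) stood in a ratio of 9.34. On log2(TPM + 1), the scale of all fold changes here, which understates the change of low genes, the log2 fold change was 1.34 (SE 0.12). It was 2.79 with a pseudocount of 0.1 TPM and 2.09 with the listed TPM rescaled to 1000000.

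A second gene ID, ENSSSCG00000050998, has no name in the deposited table and is DDIT3 in the Ensembl table of symbols. It was listed at 13.54, 14.17 and 12.39 TPM in the CON group and at 201.67, 230.49 and 191.39 TPM in the CDCA group. Its lowest CDCA library was 13.5 times its highest CON library, and its log2 fold change of 3.86 (SE 0.08) ranked 2 among the 8708 genes whose mean level reached 1 TPM. Both IDs were higher in every CDCA library, yet their levels differed widely, and the ID that carries the name held only a small share of their summed TPM. How reads that fit both IDs were divided was not settled here, so the level of DDIT3 remains uncertain while the direction was shared by both.

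ATF4, the central transcription factor of the response, could not be read from the ID that carries its name in the deposited table. Its named ID, ENSSSCG00000000084, was listed at 0.01, 0.03 and 0 TPM in the CON group and at 0, 0.04 and 0.03 TPM in the CDCA group, and it did not enter the fit. A second ID that carries the symbol ATF4 was not analysed here, so the listed values say nothing firm about the ATF4 mRNA. ATF4 is in addition controlled largely through translation, which RNA-seq does not measure.

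ATF3 (ENSSSCG00000015595), a CREB/ATF-family factor induced by ATF4 and by many other stresses, was already among the more abundant of these genes in the CON group, at 41.47, 41.96 and 39.71 TPM. In the CDCA group it stood at 141.62, 157.79 and 136.46 TPM, so that the groups did not overlap. The means were 41.0 ± 1.2 and 145 ± 11 TPM (SD, n = 3 each), a ratio of 3.54, and the log2 fold change was 1.80 (SE 0.06). ATF3 had the tightest CON values of the 8 genes that could be fitted, with a coefficient of variation of 2.88%.

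CEBPB (ENSSSCG00000034207), which encodes a C/EBP factor that dimerizes with CHOP, had 33.47, 46.39 and 45.48 TPM in the CON group and 113.31, 123.26 and 104.39 TPM in the CDCA group. Replicate 1 was the low library of the CON group, and even the highest CON library lay far under the lowest CDCA library, which was 2.25 times as high. The means were 41.8 ± 7.2 and 114 ± 9.4 TPM (SD, n = 3 each), and the log2 fold change was 1.43 (SE 0.13).

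NUPR1 (ENSSSCG00000040162), a small stress-inducible chromatin protein that acts with ATF4 and CHOP, showed the largest difference of the genes found by name. It was listed at 22.97, 18.91 and 18.29 TPM in the CON group and at 266.8, 305.2 and 263.1 TPM in the CDCA group, with no overlap. The log2 fold change was 3.73 (SE 0.10), rank 3 of the 8708 genes. Among those genes its level rank went from 2080 in the CON group to 166 in the CDCA group.

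TRIB3 (ENSSSCG00000039862) encodes a pseudokinase that is induced by ATF4 and CHOP and feeds back on both and on AKT signalling. Its levels were 3.64, 4.78 and 2.89 TPM in the CON group and 19.28, 27.2 and 25.62 TPM in the CDCA group. It was the most variable of the 8 in the CDCA group, with a coefficient of variation of 17.4%, but its lowest CDCA library was still 4.03 times its highest CON library. The log2 fold change was 2.40 (SE 0.18).

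CHAC1 (ENSSSCG00000038521), the enzyme that cleaves glutathione in the cytosol, was listed at 5.91, 5.12 and 7.41 TPM in the CON group. In the CDCA group it reached 52.34, 49.25 and 53.79 TPM, values that lay closer together in proportion (coefficient of variation 4.48%) than those of the CON group (18.9%). The groups did not overlap, and the log2 fold change was 2.90 (SE 0.12), rank 12 of the 8708 genes.

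GDF15 (ENSSSCG00000034260), a secreted hormone of the TGF-β family that signals cell stress to the brain through GFRAL, had 4.36, 4.73 and 4.74 TPM in the CON group and 28.55, 30.26 and 31.24 TPM in the CDCA group. Its libraries agreed closely within each group, the means being 4.61 ± 0.22 and 30.0 ± 1.4 TPM (SD, n = 3 each). The groups did not overlap, and the log2 fold change was 2.47 (SE 0.06).

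PPP1R15A (ENSSSCG00000003155) encodes GADD34, which brings protein phosphatase 1 to eIF2 and so reverses the phosphorylation that starts the response. It showed the smallest difference of the 8, with 19.14, 24.99 and 18.69 TPM in the CON group and 39.88, 48.19 and 42.54 TPM in the CDCA group. The groups did not overlap, the ratio of means was 2.08 and the log2 fold change was 1.03 (SE 0.12). That value is next to the fold limit of 1 used for calling and went under it, to 0.97 without CON replicate 1, to 0.96 without CON replicate 3, to 0.96 without CDCA replicate 2, to 0.98 with libraries scaled to the same median ratio and to 0.88 with totals without the mtDNA genes.

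**Figure D1:**
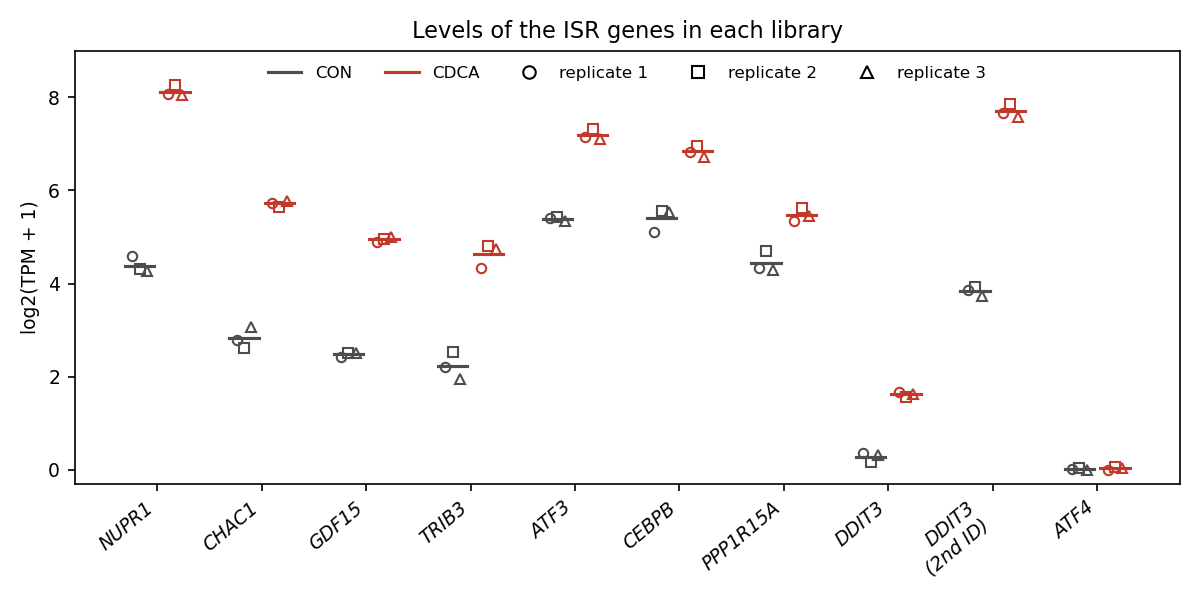
Level of each ISR gene in every library as log2(TPM + 1), for the CON group (grey) and the CDCA group (red). Symbols mark the replicate, bars the mean of the 3 libraries of a group, and DDIT3 (2nd ID) is the ID that carries the symbol in the Ensembl table. The groups were separate for all genes but ATF4, which lay at 0 to 0.04 TPM in all 6 libraries.

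Over the 9 genes found by name, 8 entered the fit and ATF4 did not; the named DDIT3 ID entered only through its CDCA values. All 8 had CDCA libraries that lay wholly above the CON libraries, which also held for 33.7% of all genes tested. All 8 were past the limits used for calling a gene higher (FDR under 0.05 and log2 fold change over 1), against 3.51% of all genes tested, but since the genes were listed for this difference nothing can be read from either count. Their median log2 fold change was 2.10, from 1.03 to 3.73, while the median of the 8708 genes was 0.047 with quartiles at -0.28 and 0.36. Of the 8, NUPR1 was among the 10 largest upward differences and 5 were among the 100 largest. With the second DDIT3 ID in place of the named one, the median was 2.43. The number past the limits was 7 or 8 in most fits with a library left out and fell to 6 without CDCA replicate 2, where PPP1R15A went under the fold limit and DDIT3, with a mean of 1.16 TPM over all libraries, went under the minimum level. DDIT3 also dropped out without CDCA replicate 1 or replicate 3.

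**Figure D2:**
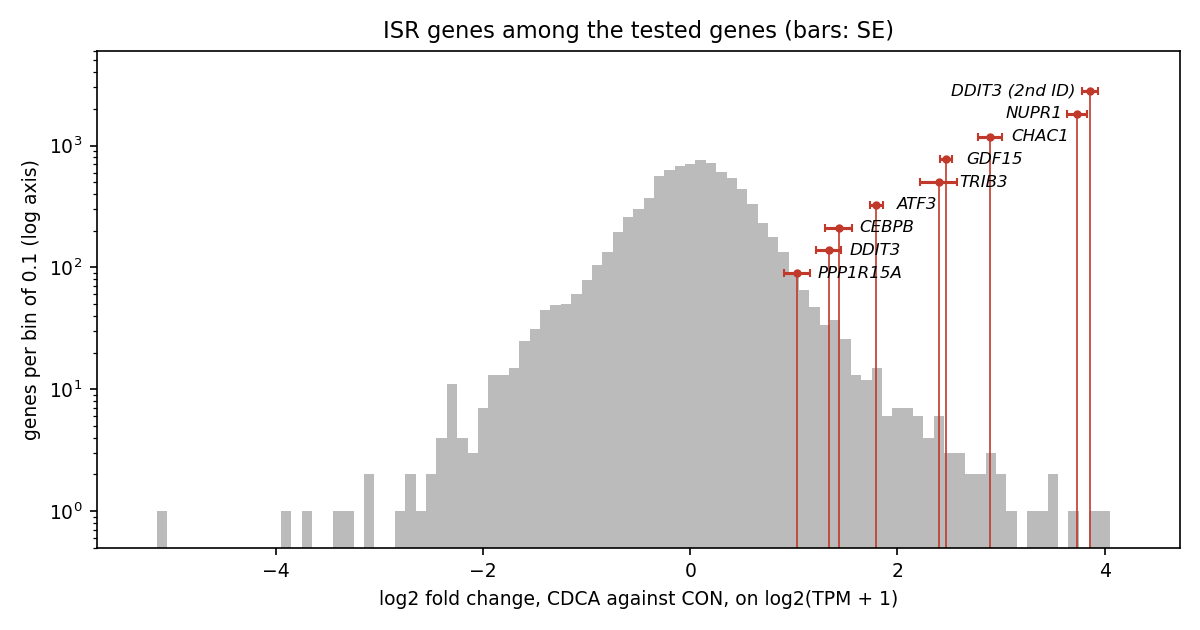
Distribution of the log2 fold change (CDCA against CON) over the 8708 tested genes, as genes per bin of 0.1 on a log axis, with the ISR genes marked in red at their own log2 fold change and SE; the height of a red point has no meaning. The ISR genes lie from 1.03 for PPP1R15A to 3.73 for NUPR1, or to 3.86 for the second DDIT3 ID.

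The order of the levels also changed between the groups. In the CON group the order ran from CEBPB and ATF3 through PPP1R15A and NUPR1 to CHAC1, GDF15, TRIB3 and the named DDIT3 ID, and the libraries of 3 neighbouring pairs overlapped: CEBPB with ATF3, PPP1R15A with NUPR1, and GDF15 with TRIB3. In the CDCA group NUPR1 stood first with a mean of 278 ± 23 TPM (SD, n = 3), followed by ATF3, CEBPB, CHAC1, PPP1R15A, GDF15, TRIB3 and the named DDIT3 ID. No neighbouring pair overlapped there, down to DDIT3 and ATF4. NUPR1 thus went from the fourth place to the first and CHAC1 passed PPP1R15A. The summed level of the 9 genes was 131, 147 and 137 TPM in the CON group and 664, 743 and 659 TPM in the CDCA group. Across the 8 genes, Spearman's rho between the CON level and the log2 fold change was -0.14 (genes of the same libraries, given as a description). The scale of log2(TPM + 1) understates the change of low genes and so bears on this value. The named DDIT3 ID, the lowest of the 8 in the CON group, had a log2 fold change of 1.34 but a ratio of means of 9.34. No relation between level and change is read from the rho.

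**Figure D3:**
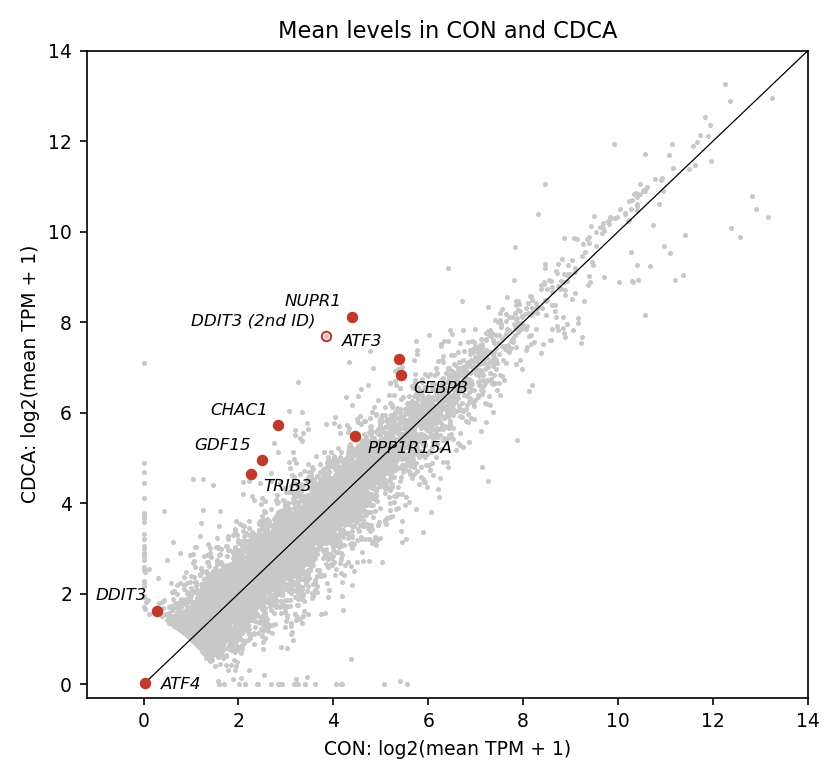
Mean level in the CON group (x axis) and the CDCA group (y axis), as log2(mean TPM + 1), for the 8708 tested genes (grey) and the ISR genes (red; the open circle is the second DDIT3 ID). The line marks equal levels. ATF3 and CEBPB began at about the same CON level of 41.0 and 41.8 TPM and reached 145 and 114 TPM.

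The libraries of the CDCA group did not all stand alike for these genes. Replicate 2 was the highest CDCA library for 5 of the 8 genes (NUPR1, TRIB3, ATF3, CEBPB and PPP1R15A), while it was the highest for 31.9% of all genes tested. CHAC1 and the named DDIT3 ID had their lowest CDCA value in that library. Coefficients of variation ran from 2.88 to 37.3% in the CON group, the highest being that of the named DDIT3 ID, and from 4.48 to 17.4% in the CDCA group, where the medians over all tested genes were 8.66% and 8.06%.

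For 2 of the genes the table lists several expressed transcripts. ATF3 has 4, of which the most abundant gave 93.7 to 94.6% of the gene's TPM in the CON group and 90.2 to 91.8% in the CDCA group. The second ATF3 transcript went from 1.81, 2.26 and 2.22 TPM in the CON group to 11.24, 11.52 and 9.34 TPM in the CDCA group. The third went from 0.13 to 0.28 TPM to 1.66 to 2.66 TPM, and the fourth stayed at 0.25 TPM or less in all 6 libraries. The 3 upper transcripts were thus higher in every CDCA library, with ratios of means of 3.42, 5.10 and 10.8.

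The 2 TRIB3 transcripts did not behave alike in the CON group. The first was listed at 2.92, 0.70 and 0.64 TPM and the second at 0.72, 4.08 and 2.25 TPM, so that the first made up 80.2% of the gene in CON replicate 1 and 14.6% and 22.1% in the others. In the CDCA group the first stood at 14.11, 20.67 and 20.34 TPM and the second at 5.17, 6.53 and 5.28 TPM, and the first made up 73.2 to 79.4% of the gene. Both transcripts were higher in every CDCA library, and their sum was steadier among the CON libraries than either alone. With only its highest listed transcript, TRIB3 had a log2 fold change of 3.11 (SE 0.35). DDIT3 and CHAC1 have a second listed transcript each, at 0 in all 6 libraries.

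**Figure D4:**
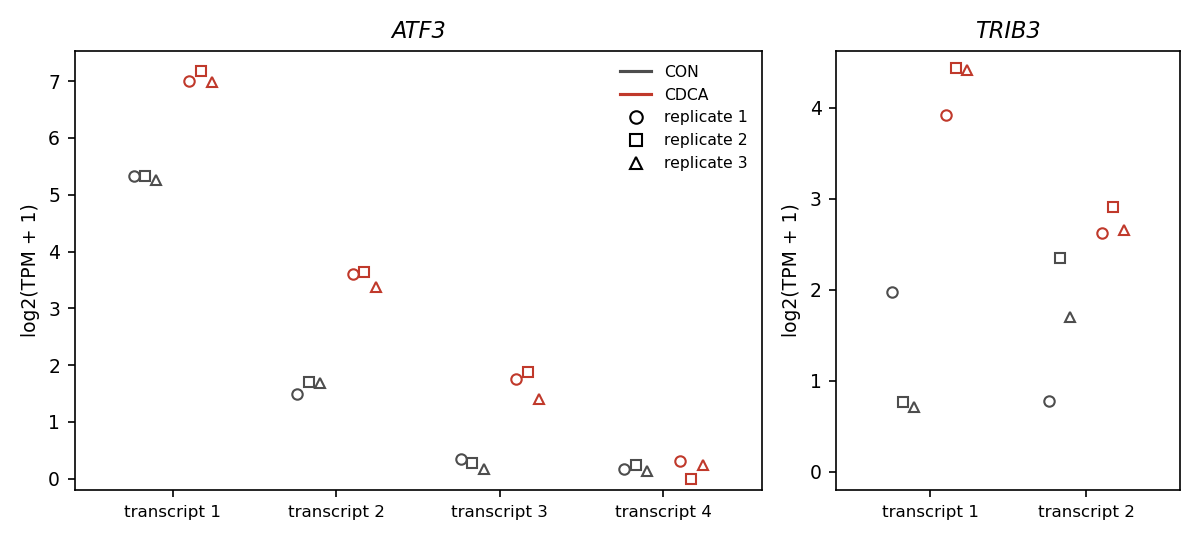
Level of each listed transcript of ATF3 (left) and TRIB3 (right) in every library as log2(TPM + 1), CON in grey and CDCA in red, with symbols for the replicates. In TRIB3 the share of the first transcript was 80.2% in CON replicate 1 and 14.6% and 22.1% in replicates 2 and 3, against 73.2 to 79.4% in the CDCA group.

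The other genes of the pathway were taken from lists and tested in the fit over all 8708 genes (limma, Benjamini-Hochberg FDR); some genes stand in more than 1 list. Of all 8708 genes 3.51% were called higher and 3.9% lower, and by the FDR alone, without the fold limit, 29.3% were higher and 23.9% lower. A gene low in 1 group can reach the minimum mean of 1 TPM only through the group where it is high, which is said below of the called genes it concerns. Upstream of ATF4, among 21 tested genes of the 23 that sense stress or set eIF2 phosphorylation, 0 were called higher and 0 lower, from which, with only 3.51% and 3.9% of all genes called, nothing can be read about so few genes. By the FDR alone, 6 were higher and 4 lower (6 and 5 at an unadjusted p under 0.05), and the median log2 fold change was 0.087, which changed sign over the alternatives, from -0.084 with a minimum mean of 5 TPM to 0.14 without CON replicate 1. OMA1, among the 4 lower, passed the minimum level only through the CON group. The ISR has 4 kinases that phosphorylate eIF2. EIF2AK3 (PERK, the sensor of endoplasmic reticulum stress) was listed at 2.38, 2.45 and 1.17 TPM in the CON group and 3.00, 1.89 and 2.40 TPM in the CDCA group, overlapping values with a limma FDR of 0.45. EIF2AK4 (GCN2, the sensor of amino acid shortage) overlapped too, at 1.37, 2.31 and 0.67 TPM against 2.11, 1.94 and 3.13 TPM (limma FDR 0.15), and passed only without CON replicate 2 (log2 fold change 0.75, FDR 0.041). EIF2AK2 (PKR, the sensor of double-stranded RNA) differed by -0.24 on the log2 scale (SE 0.12, limma FDR 0.14) and passed without CON replicate 3 (-0.35, FDR 0.047) and with totals without the mtDNA genes (-0.35, FDR 0.044).

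EIF2AK1 (HRI, the kinase that answers heme shortage and mitochondrial stress) was listed at 10.78, 12.37 and 14.14 TPM in the CON group and 10.52, 9.06 and 8.69 TPM in the CDCA group (-0.36 on the log2 scale, SE 0.11, limma FDR 0.032). The FDR rose to 0.078 without CON replicate 2, 0.081 without CON replicate 3, 0.086 without CDCA replicate 2 and 0.094 without CDCA replicate 3, and it was 0.075 with no filter on low values and 0.058 with listed TPM rescaled to 1000000. EIF2S1, the eIF2α subunit that the kinases phosphorylate, fell from 19.7 ± 1.1 to 15.4 ± 0.75 TPM (SD, n = 3 each; log2 fold change -0.33, limma FDR 0.0043). PPP1R15B, the constitutive counterpart of PPP1R15A, was listed at 3.25 ± 0.69 and 3.65 ± 1.3 TPM (log2 fold change 0.10, SE 0.23, limma FDR 0.74), and its fold change turned negative without CON replicate 3, without CDCA replicate 3 and with totals without the mtDNA genes. No mRNA measurement shows whether a kinase was active.

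Of 25 other CREB/ATF and C/EBP factors, 15 were tested, and CEBPG was the only one called, higher from 5.11, 4.74 and 3.98 TPM to 12.92, 11.20 and 12.17 TPM (log2 fold change 1.23, SE 0.10, limma FDR 0.00010). CEBPG encodes a partner of ATF4 on amino acid response elements. Without CDCA replicate 2, ATF6 was called as well (1.01). By the FDR alone 6 factors were higher and 3 lower, beside 29.3% and 23.9% of all genes. The median log2 fold change of 0.22 was unsteady, at 0.11 without CON replicate 1, 0.13 without CDCA replicate 3 and 0.76 with a minimum mean of 5 TPM. ATF5, the factor nearest to ATF4 in sequence and also translated under eIF2 phosphorylation, fell from 5.43, 5.25 and 4.90 TPM to 3.84, 4.03 and 4.12 TPM (log2 fold change -0.31, SE 0.07, limma FDR 0.012), the opposite direction to the ISR genes above.

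Among the closest paralogs of the 9 genes, 12 in all and 6 of them tested, 1 was called higher and 1 lower, against 3.51% and 3.9% of all genes. The first was CEBPG. The second was GDF11, another TGF-β family ligand, which fell from 2.83, 2.71 and 2.70 TPM in the CON group to 0.45, 0.40 and 0.53 TPM in the CDCA group (log2 fold change -1.36, SE 0.10, limma FDR 8.3e-05). GDF11 passed the minimum level only through the CON group. TRIB1 and TRIB2, the relatives of TRIB3, had means under 1 TPM and were not tested, nor was CHAC2, the relative of CHAC1.

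Downstream, of 47 other known targets of ATF4 and CHOP, 43 were listed and 35 tested. Of these, 21 (20 to 21 with a library left out) were called higher and 0 lower, against 3.51% and 3.9% of all genes. The 21 include INHBE and ALDH1L2, which passed the minimum level only through the CDCA group, so that 19 calls rest on genes expressed above it in the CON group. By the FDR alone 31 were higher and 2 lower (LONP1 and ALDH18A1, named after their values were seen), beside 29.3% and 23.9% of all genes. The counts at an unadjusted p under 0.05 were the same. The median log2 fold change was 1.41, or 1.29 with totals without the mtDNA genes and 1.06 with no filter on low values. INHBE, ALDH1L2 and FGF21, all 3 among the 31, passed the minimum level only through the CDCA group, and the other 32 tested genes had 28 higher and 2 lower with a median of 1.38. The largest difference on log2(TPM + 1) was that of SLC7A11, the cystine importer that supplies glutathione synthesis. SLC7A11 rose from 8.23, 7.25 and 6.70 TPM to 65.95, 62.79 and 66.60 TPM (log2 fold change 2.98, SE 0.07, limma FDR 2.5e-06). By the ratio of means, INHBE (164), ALDH1L2 (171) and SESN2 (11.4), all low in the CON group, stood above SLC7A11 (8.81). SESN2, an inhibitor of mTORC1 signalling under amino acid shortage, rose from a mean of 1.77 ± 0.25 TPM to 20.07, 20.74 and 19.93 TPM (2.94, SE 0.08, limma FDR 2.8e-06). PSAT1, an enzyme of serine synthesis, rose from 20.21, 19.37 and 18.06 TPM to 132.46, 124.95 and 155.60 TPM (2.77, SE 0.09, limma FDR 3.7e-06). The 8 listed genes that were not tested include ASNS, a textbook ATF4 target, which was listed at 0.19 TPM or less in every library. This list was written with earlier results of these data known and is not independent evidence of its direction.

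The unfolded protein response of the endoplasmic reticulum has, beside PERK, the ATF6 and XBP1 arms, which induce chaperones and degradation factors. Of 20 tested genes of these arms 3 were called higher and 0 lower, against 3.51% and 3.9% of all genes. By the FDR alone, and also at an unadjusted p under 0.05, 12 were higher and 1 lower, beside 29.3% and 23.9% of all genes, and the median log2 fold change was 0.53, or 0.22 with a minimum mean of 5 TPM. DNAJB9, an XBP1 target that holds IRE1 in check, rose from 7.18, 8.48 and 6.80 TPM to 28.07, 24.65 and 26.99 TPM (log2 fold change 1.70, SE 0.09, limma FDR 2.1e-05). HSPA5, the chaperone BiP, rose from 0.66, 0.99 and 1.23 TPM to 3.93, 3.88 and 3.48 TPM (1.29, SE 0.13, limma FDR 0.00031), a low level for a chaperone that cells hold in abundance; it passed the minimum level only through the CDCA group. SEL1L, of the degradation machinery, rose from 2.24, 3.80 and 5.54 TPM to 9.69, 8.19 and 10.19 TPM (1.14, SE 0.24, limma FDR 0.0075), and its fold change went under the limit without CON replicate 1 (0.88). XBP1 itself rose from 88.7 ± 0.72 to 154 ± 3.1 TPM (SD, n = 3 each; 0.79, SE 0.03, limma FDR 9.8e-06) and stayed under the fold limit; its splicing cannot be read from these values.

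The mitochondrial unfolded protein response shares factors with the ISR and covers chaperones and proteases of that organelle. Of its 14 tested genes 0 were called higher and 0 lower (limma), from which again nothing can be read. By the FDR alone 3 were higher and 4 lower (4 and 6 at an unadjusted p under 0.05). The shares of all genes by the FDR alone were 29.3% and 23.9%, and nothing is read from these counts either. FGF21, among the 3, and OMA1, among the 4, each passed the minimum level only through the group where it was higher. The median log2 fold change was -0.098, from -0.24 with totals without the mtDNA genes to 0.0085 with a minimum mean of 5 TPM. For 12 reference genes used to normalize RT-qPCR the median log2 fold change was 0.022, or -0.13 with totals without the mtDNA genes. Of these 12, 1 was called higher and 0 lower, against 3.51% and 3.9% of all genes. By the FDR alone 3 were higher and 5 lower, beside 29.3% and 23.9% of all genes, so the median hides shifts in both directions.

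**Figure D5:**
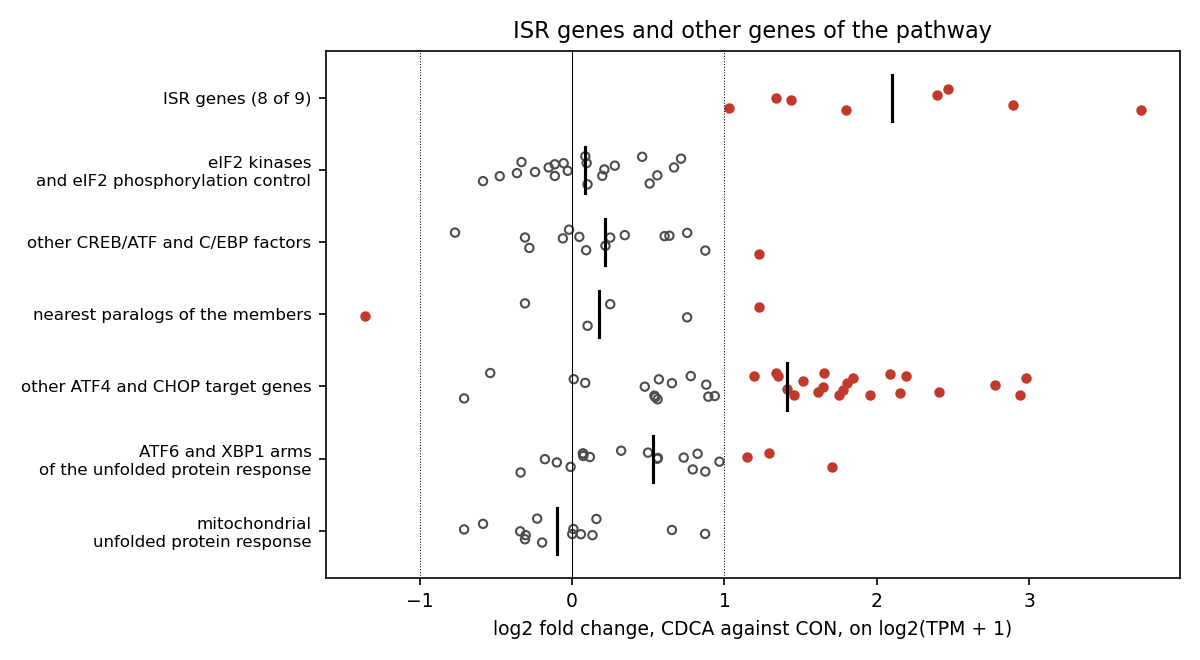
Log2 fold change (CDCA against CON) of each tested gene of the ISR list and of 6 other gene lists; filled red points are past the limits for calling a gene, open points are not, black bars are list medians, and dotted lines mark the fold limit of 1 either way. The medians were 2.10 for the ISR genes, 1.41 for the other ATF4 and CHOP targets, 0.53 for the ATF6 and XBP1 arms, 0.22 for other CREB/ATF and C/EBP factors, 0.087 for the control of eIF2 and -0.098 for the mitochondrial unfolded protein response.

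Last, the genes outside the 9 ISR genes whose profiles over the 6 libraries lay nearest to DDIT3 were found by the root mean square difference of log2(TPM + 1) centred on the CON mean. The named DDIT3 ID had CON values under the pseudocount of 1 TPM, which then sets the match, so its neighbours are not given. For the second DDIT3 ID they were ATP6V0D2 (0.28), a subunit of the vacuolar proton pump, CCL5 (0.35), a chemokine, and TMBIM6 (0.48), an anti-apoptotic protein of the endoplasmic reticulum. ATP6V0D2 and TMBIM6 had CON means of 1.06 and 1.40 TPM, near the pseudocount, which therefore bears on their match too. ATF3 had SLC3A2 (0.048), the partner chain of SLC7A11, as its nearest, CHAC1 had SESN2 (0.13), and CEBPB had VEGFA (0.064), 3 pairs that were picked after their values were seen. ATF4 was not tested and has no such neighbours.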

How the data were processed

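RNA of IPEC-J2 cells, 3 CON and 3 CDCA samples, was sequenced by the authors on an Illumina instrument after TruSeq library preparation. The authors used RSEM for quantification, and the deposited unit is TPM, for 63041 transcripts of 31908 gene IDs, with no read counts. The submitters' processing notes name Bowtie 0.12.2 and the mouse build mm10, whereas the IDs are those of pig genes; the build behind the values was not settled here, and no coordinates are given. The dose of 50 μM comes from the study's methods.

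TPM were summed per gene ID. IDs were given symbols from an Ensembl table (15029 IDs), then from the deposited names (2472) and then from Entrez numbers matched to RefSeq (2364); the 9 ISR genes were found by their deposited name. The 8708 genes whose mean level reached 1 TPM were tested with limma 3.58.1 in R 4.3.3 (lmFit, eBayes with a trend) on log2(TPM + 1), without covariates, with Benjamini-Hochberg adjustment over all of them. A gene was called at an FDR under 0.05 and an absolute log2 fold change over 1. The steps were tested on simulated data.

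The ISR genes and all gene lists were chosen with earlier results of these data known. Named were the ISR genes, the 3 called genes of each list with the largest fold change, the 4 eIF2 kinases, EIF2S1, PPP1R15B, HSPA5, XBP1, ATF5 and CEBPG, and the 3 nearest profiles to DDIT3 (given for its second ID only); marker and reference genes given as checks, and any others so marked, were picked after their values were seen. The alternatives tried were another pseudocount, 2 other filters on low values, 3 other scalings, the highest listed transcript, no trend, a block for the replicate number, each library left out, and the second DDIT3 ID. The result for 1 gene is left out. The authors' edgeR test needs counts and was not used here.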

Additional observations from a re-analysis of the deposited data

How the results depend on the processing

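The ISR genes that were tested had a positive log2 fold change under every alternative. Since they were chosen for this difference in these same libraries, nothing can be read from that sign. ATF4, which entered only with no filter, stood at 0.014 (SE 0.020), no clear difference. The median of the ISR genes was 2.67 with a pseudocount of 0.1 TPM, 1.80 with no filter (which adds ATF4) and 2.40 with a minimum mean of 5 TPM (which drops the named DDIT3 ID). It was 1.95 with totals without the mtDNA genes and 2.02 to 2.50 with a library left out. Alternatives added after seeing the data gave 2.34 with listed TPM rescaled to 1000000 and 2.43 with the second DDIT3 ID. The number past the call limits was 6 to 8 with a library left out. The log2 fold change of the named DDIT3 ID depended most on the pseudocount, 2.79 with 0.1 TPM against 1.34.

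Of all tested genes, 306 were called higher and 340 lower; the count of higher calls was 509 with a pseudocount of 0.1 TPM, 197 with a minimum of 5 TPM, 522 after rescaling to 1000000 and 305 to 327 with a library left out, and that of lower calls was 505, 238, 481 and 337 to 359 in turn. With totals without the mtDNA genes the balance moved to 221 higher and 462 lower. With a pseudocount of 0.1 TPM, 1 gene of eIF2 control (OMA1) and 1 other CREB/ATF factor (BATF3) were called lower, and the mitochondrial list had 1 call higher (FGF21) and 1 lower (OMA1). With a minimum of 5 TPM, 0 paralogs were called lower, since GDF11 was not tested. With a library left out, calls among other CREB/ATF factors numbered 1 to 2, among ATF4 and CHOP targets 20 to 21 and among the ATF6 and XBP1 arms 2 to 4. The sign turned for EIF2AK3 without CON replicate 3 (-0.0063; 0.33 at most, without CDCA replicate 2) and for PPP1R15B with totals without the mtDNA genes (-0.016), without CON replicate 3 (-0.025) and without CDCA replicate 3 (-0.10; 0.32 at most, without CDCA replicate 2); neither had passed the test, and the cause was not tested.

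CON and CDCA samples share replicate numbers, but their deviations from the group means did not go together (r = -0.035, -0.092 and -0.051 for replicates 1, 2 and 3), so the numbers were not taken as pairs. With the replicate number as a block, 309 genes were called higher and 343 lower, 8 ISR genes stayed past the limits with a median of 2.10, the numbers of called genes in the lists were as reported, and EIF2AK1 no longer passed the FDR alone (0.078). By the FDR alone, 5 genes were then higher and 3 lower for eIF2 control, 11 and 1 for the ATF6 and XBP1 arms and 2 and 4 for the mitochondrial list, PECAM1 no longer passed, and the counts of the other lists were as reported. TPM without counts hide the depth of low genes, which limits DDIT3 and ATF4 most.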
